A study of Mus musculus with 12 samples.

Results

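RNA of CD11c+ spleen cells from Bl6 mice on a high-cholesterol diet was set against that of Bl6 mice on chow, across 22855 array probes. A probe was taken when its detection p was below 0.05 on 3 or more of the 6 Bl6 arrays, which 49.4% of the 46237 probes met. Of them 17576 were detected on all 6 arrays, and 19005 carried 1 gene name and stood for 12844 genes. The high-cholesterol group was samples 10, 11 and 12 and the chow group samples 7, 8 and 9, each on an Illumina MouseWG-6 v2 array of its own, made from 100 ng of total RNA. Both groups were wild type, with no transgene or deletion named. The cells were the spleen fraction that binds magnetic beads against CD11c, a step meant to enrich dendritic cells. The rest of the series was 3 arrays of ApoE-/- cells on each diet, used here for the shared estimate of spread and for 1 contrast. The sources used here do not give the make-up of the diets, how long they were fed, the age of the mice or whether mice were pooled. Nothing in the labels states that arrays of 1 group came from different mice, so p-values describe the spread among these arrays, possibly a technical one.

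Cells hold their cholesterol level by opposed circuits. When membrane sterol is low, SCAP carries the factor SREBP2 out of the endoplasmic reticulum to be cut, and SREBP2 then switches on the enzymes of cholesterol synthesis. When sterol is plentiful, INSIG proteins hold SCAP back. Oxysterols, the oxidised products of cholesterol, activate the LXR receptors, which switch on genes that export cholesterol, among them Abca1, Abcg1 and the apolipoprotein cluster of Apoe and Apoc1. Macrophages of the spleen also take up lipoproteins and old red cells, and so carry much of this machinery beside dendritic cells.

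Bl6 arrays had a median intensity of 104 to 111 units over a background mean of 96.4 to 103, with 22566 to 23063 probes detected per array. Itgax, the gene of CD11c, read 8.47, 8.42 and 8.60 on high-cholesterol arrays and 8.31, 8.35 and 8.03 on chow arrays, all on the normalized log2 scale used throughout. Flt3, a receptor of dendritic cells, read 5.06, 4.53 and 4.76 on high-cholesterol arrays and 4.50, 4.67 and 4.53 on chow arrays. It was detected on 2 high-cholesterol arrays and 1 chow array. The 11 genes of the CD11c and dendritic cell core list averaged 9.12 to 9.19 on high-cholesterol arrays and 9.04 to 9.28 on chow arrays. Genes of other cells were bright in both groups. Of the 12 measured B cell genes the mean was 9.65 to 10.01 on high-cholesterol arrays and 9.67 to 10.40 on chow arrays. The 20 macrophage genes averaged 11.66 to 11.70 on high-cholesterol arrays and 11.31 to 11.49 on chow arrays. The fraction thus held RNA of macrophages and B cells as well as of dendritic cells.

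Arrays 10 and 12, both high-cholesterol, stood closer together than any other pair of Bl6 arrays. Over 28 probes for immunoglobulin V genes, whose use differs between individual B cell pools, these 2 arrays differed with a spread of 0.14 in log2 units, while the 14 other pairs of Bl6 arrays differed by 0.51 to 0.96. Over the 17576 probes detected on all 6 arrays the spread was 0.216 for arrays 10 and 12 and 0.233 to 0.324 for the other pairs. The V probe Igkv3-2, for instance, read 12.55 and 12.58 on arrays 10 and 12 and 9.90 on array 11, beside 10.37, 8.13 and 8.62 on chow arrays. Whether arrays 10 and 12 came from 1 mouse or pool was not tested. The main counts keep the 3 labelled samples, and the calls are also given with arrays 10 and 12 averaged into 1 sample, a choice made after seeing the data. The ApoE-/- arrays, which enter the shared spread, were not averaged there. Among them arrays 1 and 2, of 1 labelled group, also differed by 0.14 over these V probes.

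**Figure D1:**
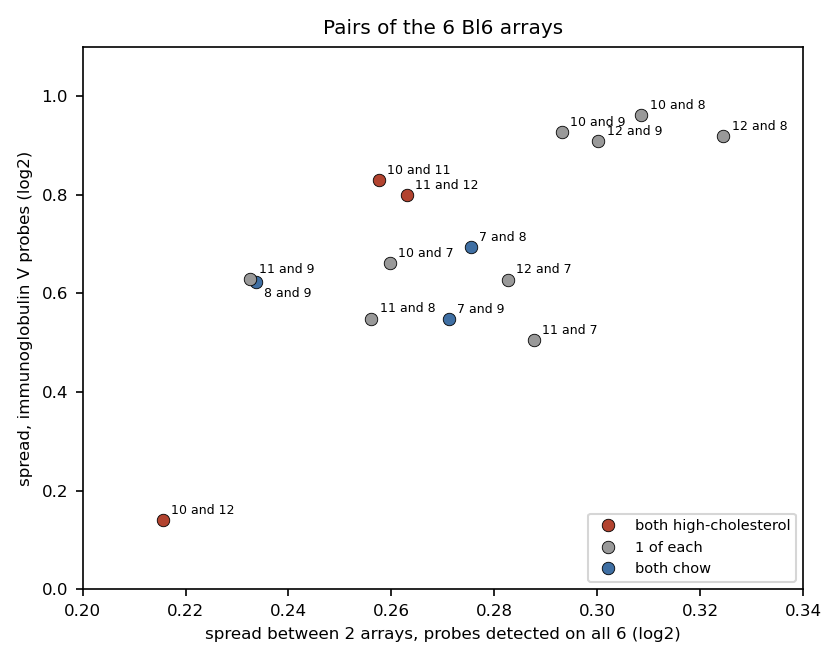
Each point is a pair of the 6 Bl6 arrays, with the spread over probes detected on all 6 arrays on the horizontal axis and over 28 immunoglobulin V probes on the vertical axis, both in log2 units. The pair of high-cholesterol arrays 10 and 12 lies at 0.216 and 0.14, below all 14 other pairs.

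The high-cholesterol diet came with more RNA of the apolipoprotein gene Apoc1 and less of the cholesterol synthesis genes Sqle and Cyp51. In all, 11 of 22855 probes (0.0481%) passed an adjusted p of 0.05, 7 of them higher and 4 lower on the high-cholesterol diet. They named 8 genes, and 2 probes carried no gene name. Counted by the brightest probe of each gene, 5 of 12844 genes rose (0.0389%) and 3 fell (0.0234%). At an unadjusted p under 0.05 there were 3057 probes (13.4%), 1430 higher and 1627 lower. The median difference over all genes was -0.0045, with quartiles of -0.16 and 0.15. In bulk cell fractions such as these, fewer cells of a type and less RNA per cell cannot be told apart.

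The number of calls rested on single arrays. It was 2 without array 10, 3 without array 12 and 73 without array 11, all high-cholesterol. It was 22 without chow array 7, and 7 without chow array 9 or without ApoE-/- chow array 1. With arrays 10 and 12 averaged, 2 probes passed, both for Apoc1. Sqle and Sdc2 then had an adjusted p of 0.0599 each, and the other called genes had adjusted p-values of 0.122 to 0.213.

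Apoc1, a small apolipoprotein encoded beside Apoe, gave the lowest p-values. Its brightest probe read 11.27, 11.55 and 11.30 on high-cholesterol arrays and 9.70, 9.94 and 9.63 on chow arrays. The groups lay far apart, and the difference was 1.62 ± 0.15 (limma, adjusted p = 0.00356, n = 3 each; ± is the standard error of the model). The second probe rose as well, by 1.68 ± 0.15, with readings of 10.10, 10.25 and 10.22 on high-cholesterol arrays against 8.67, 8.66 and 8.19 on chow arrays. With arrays 10 and 12 averaged the adjusted p of both probes was 0.0236.

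Apoe itself, the lipoprotein ligand that macrophages secrete, lay just outside the threshold. It read 13.10, 13.28 and 13.03 on high-cholesterol arrays, against 12.18, 12.33 and 12.25 on chow arrays. Every high-cholesterol array was above every chow array, with a difference of 0.89 ± 0.13 (limma, adjusted p = 0.0569, n = 3 each). It passed in 7 of 24 alternative analyses, among them the one limited to probes detected on all 6 Bl6 arrays, and had the same direction in all 24. With arrays 10 and 12 averaged its adjusted p was 0.213.

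A further 5 called genes were in none of the gene lists. Sdc2, the heparan sulfate proteoglycan syndecan-2, read 7.79, 7.30 and 7.61 on high-cholesterol arrays and 5.68, 5.74 and 5.39 on chow arrays, a rise of 1.96 ± 0.21 (adjusted p = 0.00773). Sostdc1, a secreted antagonist of BMP and Wnt signalling, rose by 1.60 ± 0.20 at a low level. It was detected on 3 high-cholesterol arrays but on 1 chow array. Ripply3, a transcriptional corepressor, rose by 1.26 ± 0.16, and Ctla2b, which resembles the propeptide of a cysteine protease, by 0.92 ± 0.11. Cacna1d, the pore subunit of an L-type calcium channel, fell by 0.98 ± 0.14, with 6.35, 6.64 and 6.19 on high-cholesterol arrays against 7.44, 7.18 and 7.51 on chow arrays. The adjusted p was 0.0148 for Sostdc1 and Ctla2b, 0.0205 for Ripply3 and 0.0348 for Cacna1d. The call was lost in 3 of 24 alternative analyses for Sdc2, 6 of 23 for Sostdc1, 8 of 24 for Ripply3, 6 of 24 for Ctla2b and 14 of 24 for Cacna1d, with the direction kept in all. Without background correction the differences were 1.03 for Sdc2, 0.55 for Sostdc1, 0.54 for Ripply3, 0.55 for Ctla2b and -0.57 for Cacna1d, all called. Of the unnamed probes ILMN_2747031 fell by 1.44 ± 0.15 and ILMN_1233840 rose by 0.90 ± 0.13 (adjusted p = 0.0454).

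**Figure D2:**
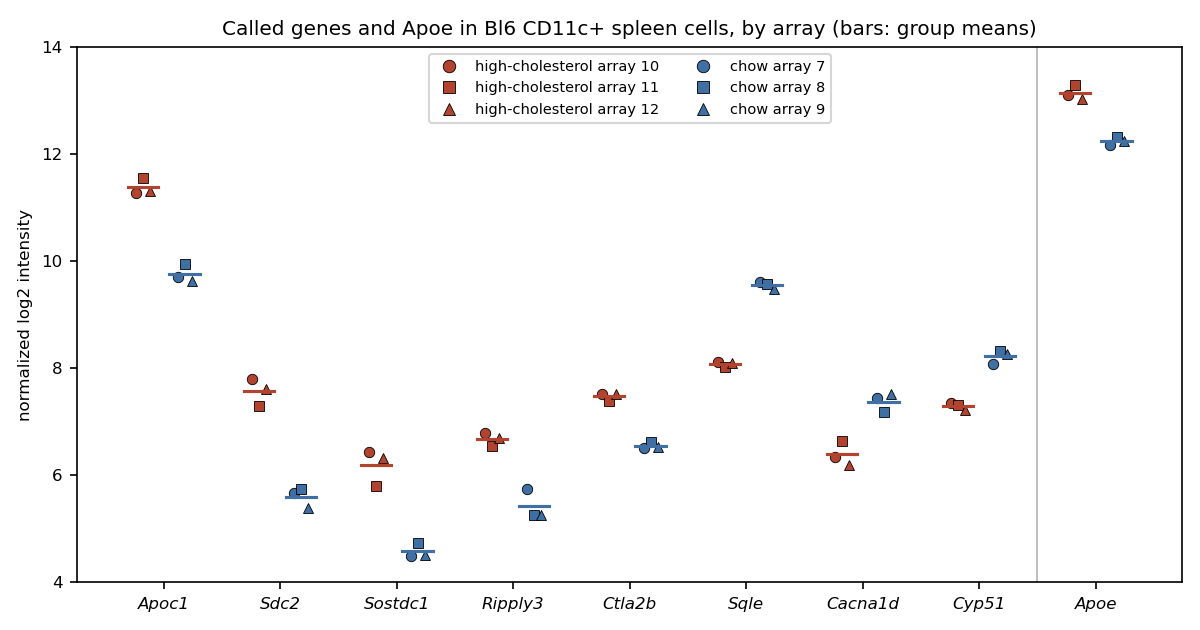
Normalized log2 intensity of the 8 called genes and, right of the line, of Apoe, for each of the 3 high-cholesterol arrays (red, left) and 3 chow arrays (blue, right), with bars at the group means. In each of these 9 genes the groups do not overlap.

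The fall of Sqle was the largest among the cholesterol synthesis genes. Sqle encodes squalene epoxidase, the first oxygen-using step on the way to sterols. It read 8.12, 8.02 and 8.11 on high-cholesterol arrays, against 9.61, 9.58 and 9.48 on chow arrays. The 3 values of each group lay close together, and the difference was -1.47 ± 0.16 (limma, adjusted p = 0.00773, n = 3 each). A dimmer second probe read -0.87 ± 0.31 and did not pass (adjusted p = 0.263).

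Cyp51, the lanosterol demethylase further along the same route, fell as well. It read 7.34, 7.32 and 7.23 on high-cholesterol arrays and 8.07, 8.32 and 8.27 on chow arrays. The groups were separate, and the difference was -0.93 ± 0.12 (limma, adjusted p = 0.0298, n = 3 each). This call was lost in 11 of 24 alternative analyses, and its direction held in all of them.

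Promoters are shown for Cyp51 and for Hsd17b7 and Msmo1, the enzymes of the same list with the next lowest values, because SREBP2 acts on such genes together with the factor NF-Y. Sqle, the lowest of that list, had no promoter entry, nor had Fdps and Stard4, so the motif counts leave them out. Each is the 250 bases before the start of the gene, from RefSeq in GRCm38.p6, 5′ to 3′ on the minus strand, which is the strand of all 3 genes. Capitals mark CCAAT, the box that NF-Y binds, on either strand. The windows are chr5:4104698-4104947 for Cyp51, chr1:169969206-169969455 for Hsd17b7 and chr8:64733579-64733828 for Msmo1.
Cyp51: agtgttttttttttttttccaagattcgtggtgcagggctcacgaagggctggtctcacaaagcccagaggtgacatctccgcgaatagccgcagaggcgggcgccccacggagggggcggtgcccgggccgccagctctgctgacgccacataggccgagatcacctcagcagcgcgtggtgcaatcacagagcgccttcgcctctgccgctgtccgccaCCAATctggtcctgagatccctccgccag
Hsd17b7: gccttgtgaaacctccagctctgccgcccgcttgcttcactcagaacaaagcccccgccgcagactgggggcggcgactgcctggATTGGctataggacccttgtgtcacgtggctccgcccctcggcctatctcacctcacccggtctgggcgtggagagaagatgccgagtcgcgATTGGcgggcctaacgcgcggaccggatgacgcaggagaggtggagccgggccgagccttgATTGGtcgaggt
Msmo1: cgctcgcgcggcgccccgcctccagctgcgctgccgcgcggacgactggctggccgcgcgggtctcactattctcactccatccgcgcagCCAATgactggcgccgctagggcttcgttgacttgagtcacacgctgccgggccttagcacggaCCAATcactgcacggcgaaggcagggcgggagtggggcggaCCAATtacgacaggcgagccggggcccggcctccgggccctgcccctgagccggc

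The CCAAT box stood once before Cyp51 and 3 times before each of the other two. Of the 22 measured sterol genes with a promoter entry, 19 (86.4%) held the box in at least 1 promoter, against 3779 of 9410 measured genes (40.2%). Counted by promoter, 20 of the 30 promoters of these sterol genes (66.7%) held it, against 11120 of all 32851 promoters (33.9%). The sterol regulatory element was searched in the strict form TCACNCCAC, on both strands. It was in 0 of the 22 genes, and so overlapped no box there. That form was in 115 of 9410 measured genes (1.22%) and in 346 of all promoters (1.05%). A shorter form, CACNCCAC, was in 1 of the 22 genes (4.5%), against 634 of 9410 (6.7%). Other forms of the element were not searched, and forms this rare give few hits in 22 genes. The 0 therefore does not show that these promoters lack the element. These counts describe letters in the window and not binding.

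The early mevalonate enzymes, which build farnesyl diphosphate from acetyl units, had no call. Of 9 listed genes 5 were measured, and 0 rose and 0 fell. Their median difference was -0.29, and all 5 values were below 0. Fdps, which makes farnesyl diphosphate, read 10.03, 9.66 and 9.96 on high-cholesterol arrays and 10.62, 10.44 and 10.54 on chow arrays. That was a difference of -0.65 ± 0.14 (adjusted p = 0.111), and its second probe read -1.10 ± 0.29 (adjusted p = 0.156). Mvd, the mevalonate diphosphate decarboxylase, read -0.37 ± 0.13, and on both of these genes the groups did not overlap. The kinases Pmvk (-0.17) and Mvk (-0.07) and the isomerase Idi1 (-0.29) had overlapping groups. The values of Mvk and Idi1 turned positive when single arrays were left out.

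In the steps from squalene to cholesterol 12 of 14 genes were measured, of which 2 fell (Sqle and Cyp51) and 0 rose. The list's median was -0.30. Hsd17b7, a sterol reductase, read 7.22, 7.38 and 7.29 on high-cholesterol arrays against 8.02, 8.23 and 8.07 on chow arrays, a difference of -0.82 ± 0.13 that missed the threshold (adjusted p = 0.0592). Msmo1, a methyl sterol oxidase, read -0.66 ± 0.17, and Dhcr7, the reductase of the last step, -0.41 ± 0.13. The lanosterol synthase Lss read -0.31 ± 0.14 and the scaffold protein Erg28 -0.16 ± 0.10. In these 7 genes, Sqle and Cyp51 included, every high-cholesterol array was below every chow array.

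Not every step shared that direction. The isomerase Ebp read 0.22 ± 0.11 and the dehydrogenase Nsdhl 0.34 ± 0.18, and both groups were separate in the upward direction. The 3 other Nsdhl probes read 0.50, 0.18 and -0.27. Tm7sf2, a sterol reductase near its detection limit, read 0.04 ± 0.28, a value that turned negative without array 10. Sc5d and Lbr read -0.29 and -0.21 with overlapping groups.

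Among the sterol sensors and regulators 8 of 14 genes were measured and 0 passed. Srebf2, the gene of SREBP2, read 9.10, 8.88 and 8.75 on high-cholesterol arrays and 9.77, 9.74 and 9.30 on chow arrays. The difference was -0.69 ± 0.16 (adjusted p = 0.123), but its second probe read -0.14 ± 0.11. Stard4, a sterol carrier in the cytosol and a target of SREBP2, read -0.58 ± 0.13 (adjusted p = 0.123), and Scap -0.37 ± 0.14. The other members were Insig1 (-0.28), the protease Mbtps1 (-0.30), Insig2 (0.17), Srebf1 (0.13) and Tmem97 (0.11), the last of which was near 0 without array 10. Of these 8 genes 3 had groups that were separate in the downward direction and 1, Insig2, in the upward.

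Across the 3 lists 25 of 37 sterol genes were measured, 2 fell and 0 rose. Values were below 0 in 19 of the 25 and the median was -0.29, against -0.0045 over all genes. The high-cholesterol arrays were all below the chow arrays in 12 of the 25 genes (48.0%), where 9.25% of all measured genes had that order. They were all above in 3 of the 25, where 8.37% of all genes had that order.

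**Figure D3:**
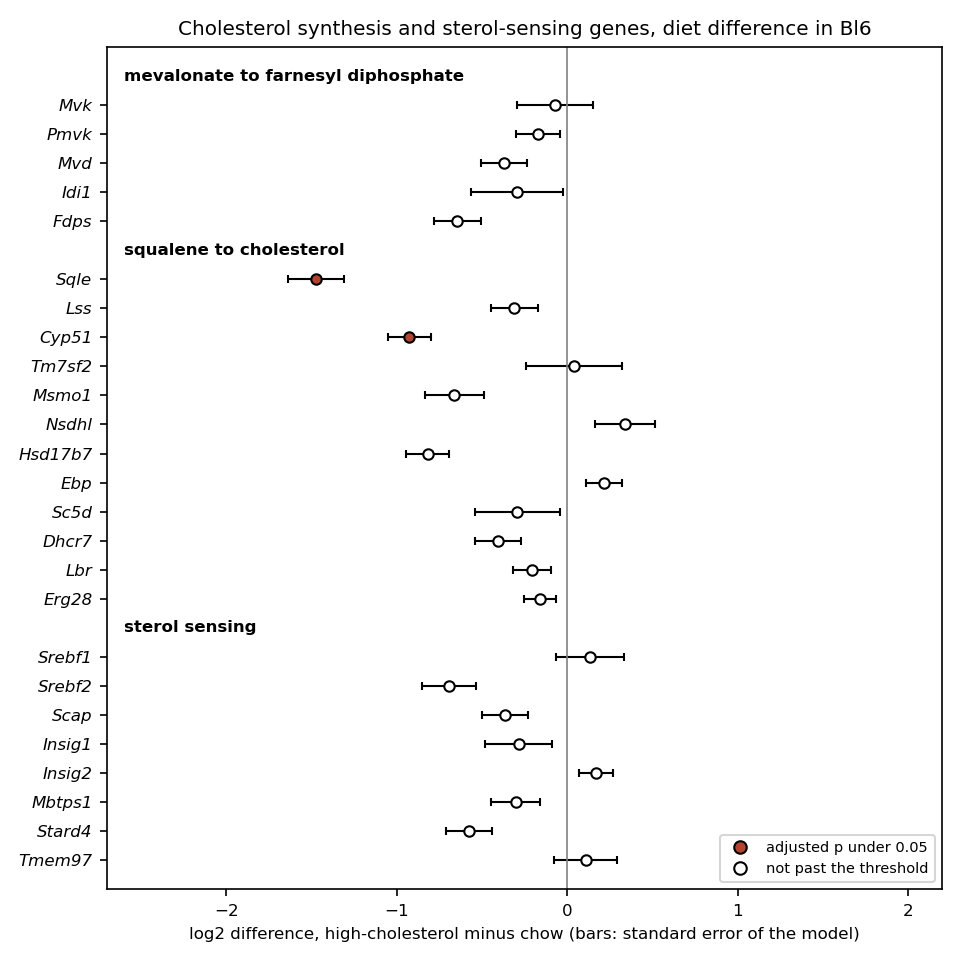
Log2 difference, high-cholesterol minus chow, of the 25 measured genes of cholesterol synthesis and sterol sensing in pathway order, with the standard error of the model. Filled points are the 2 genes past the adjusted p of 0.05, Sqle at -1.47 and Cyp51 at -0.93; 19 of the 25 points lie below 0.

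The LXR receptors and their export targets had 15 of 20 genes measured, of which Apoc1 rose and 0 fell. The median was 0.21, and in 6 genes every high-cholesterol array was above every chow array, while 0 genes showed the opposite order, against 8.37% and 9.25% of all measured genes. Lpl, the lipase that frees fatty acids from lipoproteins, read 12.20, 12.11 and 12.36 on high-cholesterol arrays and 11.15, 11.39 and 11.32 on chow arrays (0.93 ± 0.21, adjusted p = 0.12). Pltp, a phospholipid transfer protein, read 0.71 ± 0.16 (adjusted p = 0.118). Abcg1, a cholesterol exporter, read 0.45 ± 0.18 and Scd2, a desaturase, 0.35 ± 0.16. The receptor gene Nr1h3 read -0.36 ± 0.36, and Scd1 -0.08 ± 0.25. Abca1 was on the array but was not among the detected probes.

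Macrophage markers also read slightly higher. In the list for macrophages of red pulp and marginal zone, 0 of 20 measured genes passed, 17 had values above 0, and the median was 0.16. The high-cholesterol arrays were all above the chow arrays in 8 of the 20, against 8.37% of all genes, and all below in 1, Marco. The part of macrophage content in the values of Apoc1, Apoe, Lpl and Pltp was not tested. The complement genes C1qc (0.32 ± 0.12) and C1qb (0.25 ± 0.12) and the haemoglobin receptor Cd163 (0.35 ± 0.11) had separate groups without passing. Fcgr1, an Fc receptor of macrophages, read 0.83 ± 0.14 (adjusted p = 0.0658), whereas Adgre1, a surface receptor that marks macrophages, read -0.05 and the iron exporter Slc40a1 0.06.

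Vsig4, a complement receptor of resident macrophages, had the largest difference of any named gene and was picked out after its values were seen. It read 9.53, 9.34 and 9.69 on high-cholesterol arrays and 6.33, 5.98 and 5.56 on chow arrays. The difference of 3.56 ± 0.71 did not pass (adjusted p = 0.0861). On the 6 ApoE-/- arrays, whose spread enters the model, Vsig4 ranged from 6.95 to 9.72. It read 9.70, 9.72 and 9.58 on arrays 1, 2 and 6, 7.12 and 6.95 on arrays 3 and 5, and 8.35 on array 4. High and low readings thus occurred within each labelled ApoE-/- diet. Fitted on the 6 Bl6 arrays alone, which leaves out this spread, Vsig4 read 3.56 ± 0.21 and passed (adjusted p = 0.00695). With arrays 10 and 12 averaged its adjusted p was 0.276.

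Lipid uptake and storage genes showed small shifts. Of 18 measured genes 0 passed, with a median of 0.18 and 14 values above 0. Plin2, the coat of lipid droplets, read 0.47 ± 0.15, Gpnmb, a glycoprotein of lipid-laden macrophages, 0.47 ± 0.11, and both had separate groups. Soat1, which esterifies cholesterol for storage, was detected on 3 high-cholesterol arrays and on 0 chow arrays. It thus met the detection filter only through the group where it read higher. Its readings lay near the detection limit, at 5.11, 4.67 and 4.68 on high-cholesterol arrays and 4.42, 4.33 and 4.42 on chow arrays (adjusted p = 0.388). Dgat2, an enzyme of triglyceride synthesis, read -0.59 ± 0.16 (adjusted p = 0.167). Fatty acid synthesis had 0 calls among 16 genes and a median of -0.06, and fatty acid oxidation 0 among 15 with a median of 0.09. The 9 genes of the oxysterol list, which covers oxysterol synthesis and the receptor Gpr183, had a median of -0.05.

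**Figure D4:**
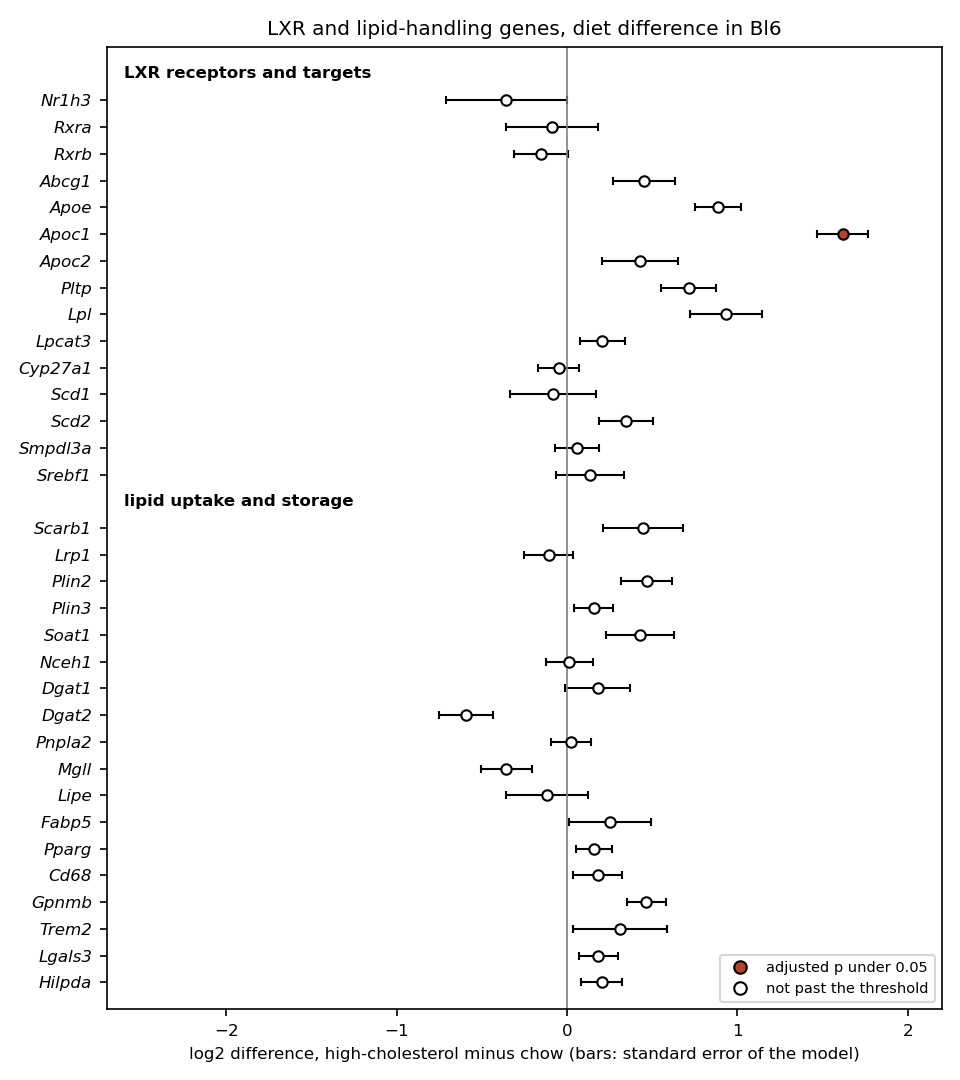
Log2 difference, high-cholesterol minus chow, of 15 LXR and export genes and 18 genes of lipid uptake and storage, with the standard error of the model. The filled point is Apoc1 at 1.62, the 1 gene past the adjusted p of 0.05, and Lpl (0.93) and Apoe (0.89) come next.

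Genes of plasmacytoid dendritic cells, the producers of type I interferon, read lower without passing. Of 13 measured genes 0 were called, 11 had values below 0 and the median was -0.45. The high-cholesterol arrays were all below the chow arrays in 6 of the 13 and all above in 1, against 9.25% and 8.37% of all genes. Irf7 had the highest value, 0.39. Siglech, their defining lectin, read 10.23, 10.64 and 10.38 on high-cholesterol arrays and 11.34, 10.83 and 11.43 on chow arrays (-0.78 ± 0.19, adjusted p = 0.131). Its second probe read -0.73 ± 0.25 with overlapping groups (adjusted p = 0.253). Klk1, a kallikrein, read -0.90 ± 0.17 (adjusted p = 0.0809). The list's mean was 9.19 to 9.36 on high-cholesterol arrays and 9.59 to 9.74 on chow arrays, so the groups did not overlap.

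Conventional dendritic cell lists lay near 0. The CD11c and core list had 0 calls among 11 genes and a median of -0.12, the type 1 list 0 among 12 with a median of 0.07, and the type 2 list 0 among 12 with a median of -0.10. Itgae, the integrin CD103 of type 1 cells, read 0.66 on its brightest probe (adjusted p = 0.14), and 4 of its 5 other probes read 0.52 to 0.83. In the type 2 list 11 of 12 values were below 0, with Mgl2, a lectin, the lowest at -0.50. The B cell list had a median of -0.32, but its means of 9.65, 10.01 and 9.66 on high-cholesterol arrays overlapped the 9.67, 10.40 and 10.14 on chow arrays.

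**Figure D5:**
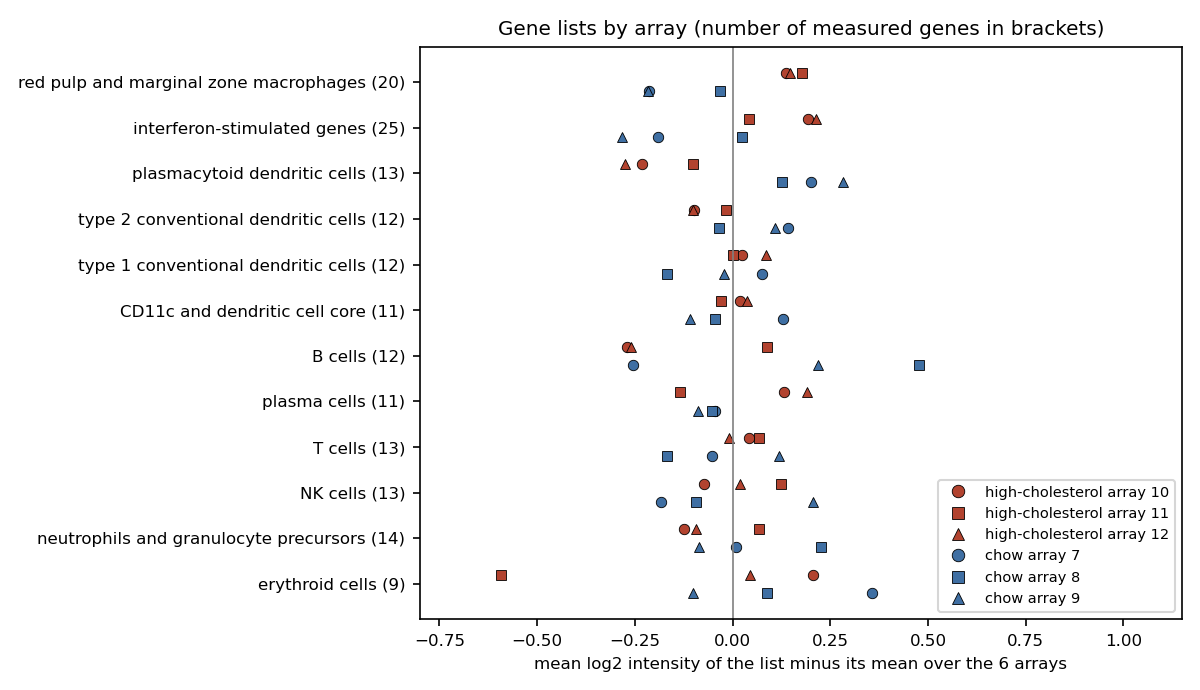
Mean log2 intensity of 12 gene lists on each of the 3 high-cholesterol arrays (red, upper row) and 3 chow arrays (blue, lower row), relative to the mean of the 6 arrays. The groups are separate in the macrophage, interferon and plasmacytoid lists, and overlap in the T cell and B cell lists.

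Interferon-stimulated genes read higher on the high-cholesterol diet without passing. Of 25 measured genes 0 were called, 22 had values above 0, and the median was 0.35. The antiviral synthetase Oasl2 read 10.77, 10.39 and 10.61 on high-cholesterol arrays and 9.75, 10.21 and 9.44 on chow arrays (0.79 ± 0.24, adjusted p = 0.199), but its second probe read 0.22 ± 0.21. The high-cholesterol arrays were all above the chow arrays in 9 of the 25 genes, against 8.37% of all genes. The list's mean was 8.92 to 9.09 on high-cholesterol arrays and 8.60 to 8.90 on chow arrays.

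Cytokine genes went both ways. Of 15 measured genes 0 passed, and the median was 0.03. Il1b, the inflammatory interleukin 1 beta, read -0.90 with an adjusted p of 0.0592, and Il1a and Il12a read -0.33 and -0.46. Il10, an anti-inflammatory cytokine, read 5.77, 5.64 and 6.22 on high-cholesterol arrays and 5.25, 4.95 and 4.46 on chow arrays (0.99 ± 0.22, adjusted p = 0.115). Without background correction the difference was 0.33 for Il10 and -0.85 for Il1b. The decoy receptor Il1r2 read 0.56 ± 0.12 and Il27 0.77 ± 0.27. Over the 15 genes the high-cholesterol arrays were all above in 5 and all below in 3, against 8.37% and 9.25% of all genes. MHC class II genes, with 0 calls among 14 and a median of 0.07, and the maturation list, with 0 among 16 and a median of 0.04, stayed near 0.

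The diet difference in Bl6 cells was last set against that in ApoE-/- cells by the interaction of genotype and diet. The contrast also differs in sex, which the labels do not give: Xist, the RNA of the inactive X chromosome, read 9.75 to 10.88 by its brightest probe on the Bl6 arrays of both diets and was by that probe detected on 0 ApoE-/- arrays, while the Y-linked Kdm5d was detected on all 6 ApoE-/- arrays and 0 Bl6 arrays. Sex and genotype thus cannot be told apart here. Of 22855 probes 0 (0%) passed and 1860 had an unadjusted p under 0.05. Diet names of ApoE-/- arrays are swapped between both deposited tables, and with those diets exchanged 0 of 22855 probes passed as well. The interaction was 1.57 ± 0.21 for Apoc1 and -1.65 ± 0.23 for Sqle (adjusted p = 0.0768 for each). With the ApoE-/- diets exchanged it was 1.66 for Apoc1 and -1.30 for Sqle. In ApoE-/- cells Apoc1 read 0.04 ± 0.15 between diets and Sqle 0.18 ± 0.16, with a sign that rests on the names of the intensity table. For Cyp51 the interaction was -0.93 ± 0.18 (adjusted p = 0.249). By the immunoglobulin V probes the ApoE-/- arrays 1, 2 and 6, and likewise 3 and 5, differed by 0.11 to 0.17 within each set, against 0.44 to 0.77 for the other pairs of ApoE-/- arrays. Each set spans both labelled diets, under either naming. Whether the arrays of a set came from 1 mouse or pool was not tested. If they did, the ApoE-/- diet difference in part compares like with like, but array 4 is in neither set. Array 4 read 9.52 for Sqle, against 8.76 to 9.02 on the other ApoE-/- arrays. For Apoc1 array 4 read 11.07, against 10.58 to 10.82 on the others. Exchanging the diets only turns the sign of the ApoE-/- diet difference. The interaction therefore cannot settle whether the diet difference depends on genotype.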

How the data were processed

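Spleen CD11c+ RNA was hybridised to 12 single-colour arrays, of which 6 are compared here. Per the file headers, 1 deposited table gives a linear intensity and a detection p-value per probe and array; another deposited table holds log2 values, which equal the log2 of the intensity plus a constant per array. Names of the 6 Bl6 arrays match between them. No batch or chip is named.

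Intensities were background-corrected with limma 3.58.1 in R 4.3.3 (nec, offset 16, its negative controls derived from detection p-values) and quantile-normalized over 12 arrays. A linear model with 4 group means (8 residual and 3.21 prior degrees of freedom) was fitted to the 22855 probes, with two-sided moderated tests and Benjamini-Hochberg adjustment over them. "Rose" and "fell" mean an adjusted p under 0.05. A gene is its brightest tested probe. The number of arrays limits the precision. Probe names come from the platform's list, updated through the GRCm38.p6 gene table. The members, lists and naming rule (Apoe, up to 12 genes called per direction, all sterol genes, up to 4 per other list or its smallest p) were chosen with earlier results of these data known. Other list members printed, and Vsig4, were chosen after their values were seen. Steps were tested on simulated data. Alternatives changed the filter, background, normalization, values, samples, weights and variance model, and left out arrays in turn.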

Additional observations from a re-analysis of the deposited data

How the results depend on the processing

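The count of called probes moved most. Against 11 (7 higher, 4 lower), it was 55 (25 and 30) over probes detected on all 6 Bl6 arrays, 264 (117 and 147) without background correction, 135 (68 and 67) with an offset of 50, 210 (105 and 105) on the deposited log2 values and 256 (98 and 158) with a variance trend and robust moderation. It was 4 (3 and 1) both with the 6 Bl6 arrays normalized and fitted alone and with only those 6 in the fit, and 2 (2 and 0) with arrays 10 and 12 averaged. Median scaling gave 9, with 2 lower. Leaving out 1 array gave 2 to 73 calls, 2 to 28 higher and 0 to 45 lower. The cause of these shifts was not tested beyond the smaller samples. Over 70 genes or probes and 1677 values, 1543 kept direction and side of the threshold, 75 lost a call, 52 gained one and 7 changed direction, none of them called: with 1 array left out Idi1 ranged from -0.57 to 0.049, Mvk from -0.19 to 0.041, Tm7sf2 from -0.19 to 0.29 and Tmem97 from -0.0041 to 0.24, and Tm7sf2 read -0.0020 on deposited log2 values. The brightest Apoc1 probe stayed called in all 24 alternatives. Hsd17b7 passed in 8 of 24, Fdps in 4 and Srebf2 in 3. The list medians moved by over 1 SD in 39 of 936 values, which belonged to 17 of the 39 lists. No paired analysis was possible because the 2 diets share no replicate number. The median probe lay close to background, so dim genes such as Sostdc1, Il10 and Tm7sf2 are the least certain.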

Other observations

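The 6 lists of stress and activation genes held 0 calls and went both ways. NRF2 and glutathione defence genes had a median of 0.10 over 17 genes and endoplasmic reticulum stress genes 0.07 over 18, while heat shock genes had -0.05 over 11 and circadian clock genes -0.15 over 11. The 18 immediate early genes had a median of -0.21, and in 5 of them every high-cholesterol array was below every chow array, against 9.25% of all genes. Fosb, a factor of the AP-1 family, read 5.15, 5.09 and 4.86 on high-cholesterol arrays and 6.18, 6.41 and 5.34 on chow arrays (-0.94 ± 0.27, adjusted p = 0.173). Its relative Fos read -0.61 ± 0.18. The 11 glucocorticoid response genes had a median of -0.25, with Tsc22d3, the leucine zipper induced by glucocorticoids, at -0.59 ± 0.22 and -0.83 ± 0.29 on its 2 probes. Of 15 NF-kappaB genes Nfkb1 was the lowest (-0.56 ± 0.15, adjusted p = 0.158). Ribosomal protein genes had a median of -0.01 over 14 genes, and respiratory chain genes 0.09 over 22.

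Erdr1, a gene of the pseudoautosomal region, read 10.96, 4.23 and 10.65 on high-cholesterol arrays 10, 11 and 12, against 11.79, 11.89 and 12.06 on chow arrays. Its second probe repeated the pattern, with 7.55, 4.27 and 7.44 on high-cholesterol arrays and 8.68, 8.91 and 9.02 on chow arrays. On the 6 ApoE-/- arrays the brighter probe read 10.31 to 10.83. Array 11 was thus alone among the 12 in a reading near background. The same array had the lowest mean of the erythroid list, 8.58, against 9.38 and 9.22 on arrays 10 and 12 and 9.07 to 9.53 on chow arrays. The V probe Ighv1-62-3 read 11.62 and 11.59 on arrays 10 and 12 and 9.20 on array 11, and 8.79, 8.55 and 9.94 on chow arrays.

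The chemokine gene Cxcl13, which draws B cells into follicles, read 7.63, 6.50 and 7.84 on high-cholesterol arrays and 5.83, 6.38 and 5.99 on chow arrays (1.25 ± 0.32, adjusted p = 0.143). The complement gene C4a read 1.21 ± 0.35 and 1.33 ± 0.42 on its 2 probes, and the granzyme gene Gzmk 1.09 ± 0.25 (adjusted p = 0.119). Cxcl13, C4a and the probes of this paragraph and the one before were picked out after their values were seen.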
